A study of Mus musculus with 3 samples.

Results

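Coch, Crabp1 and Dkk2 fibroblasts are a small set of cells from mouse dorsal skin that were picked out by 5 genes. Cells were retained if they had 500 or more detected genes and if mitochondrial genes gave no more than 10% of their UMIs, the barcodes by which copies of the same captured RNA molecule are counted once. A retained cell counted as a fibroblast when the matrix genes Dcn, Lum, Col1a1, Col1a2 and Col3a1 together made up at least 1% of its UMIs and when Ptprc, Epcam and Cdh5, markers of immune, epithelial and endothelial cells, had 0 UMIs. A fibroblast was a member when at least 3 of Coch, Crabp1, Gldn, Dkk2 and Apcdd1 had at least 1 UMI. Of the 36868 cells in the 3 libraries, 32377 were retained, 13214 of these were fibroblasts and 359 were members, with 85 in CON, 120 in UV and 154 in Rux.

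All 3 libraries were droplet-based 3' single-cell RNA-seq of full-thickness dorsal skin from wild-type C57BL/6J mice labelled female and 8 weeks old. The study gives that age for the mice it purchased, and the sources used here do not state the age at collection. CON skin was not irradiated. CON and UV skin received vehicle, as the study describes its groups, which the labels do not state. UV skin was irradiated on alternate days over 12 weeks, with UVB at 3.5 mW/cm2 together with UVA at 0.60 mW/cm2. Rux skin was irradiated in the same way and treated with 1.5% ruxolitinib ointment, an inhibitor of the Janus kinases JAK1 and JAK2, after each exposure, and UV and Rux skin were collected 24 h after the last exposure. The sources used here do not state how many mice went into a library. Each condition was 1 library, so a difference between conditions has no replicate check and cannot be told apart from a difference between libraries. Cells are not replicates, and the comparisons carry no test. The ranges in parentheses are exact 95% intervals, which cover counting error only.

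Members carried 1032060 UMIs in CON, 1133050 in UV and 2261352 in Rux. Their median depth was 11273, 8113.5 and 11506 UMIs per cell, against 5749, 7007.5 and 9661 in the other fibroblasts. Levels are given as CPM, which scale the UMIs of a gene, summed over the named cells, to a fixed total of UMIs of the same cells. A log2 ratio compares 2 such levels, after 0.5 UMI was added to each sum. The labels give female mice, but Ddx3y, a gene of the Y chromosome, had 110, 116 and 122 CPM in the retained cells of CON, UV and Rux, and Xist, transcribed from the inactive X chromosome, had 0.117, 0.107 and 0.101 CPM. The members also held Ddx3y, at 139, 144 and 123 CPM, and 0 UMIs of Xist. The 3 libraries were alike in this. No barcode was shared between members of different libraries, whereas 50 barcodes of all deposited cells were shared by UV and CON, 40 by Rux and UV, and 28 by Rux and CON.

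Fibroblasts of the dermis differ by position, and those of the hair follicle, the upper and lower dermis and the fascia build different matrix and send different signals. Among the genes that define the members, Coch encodes cochlin, a secreted protein first known from the inner ear, Crabp1 a cytoplasmic binder of retinoic acid, and Gldn gliomedin, a cell-surface protein best known from the nodes of peripheral nerves. Dkk2 encodes a secreted modulator of Wnt signalling and Apcdd1 a membrane inhibitor of it. Fmod, a marker of these cells that the rule did not use, encodes fibromodulin, a small proteoglycan of collagen fibrils. Cytokine receptors of fibroblasts act through Janus kinases and STAT transcription factors, whose direct targets include Socs3, a feedback inhibitor of the same receptors, and Irf1, a transcription factor of the interferon response.

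In GRCm38, the build of the files, Coch lies at chr12:51593341-51605771, Crabp1 at chr9:54764748-54773110, Gldn at chr9:54286486-54341786, Dkk2 at chr3:132085292-132180304 and Fmod at chr1:134037254-134048277, all on the plus strand. The promoters of Socs3 and Irf1 are shown because both genes were lower in Rux than in UV and CON in the members. Each runs from 250 bases before to 50 bases after the RefSeq transcription start (GRCm38.p6), that of Socs3 at chr11:117969317-117969616 on the minus strand and that of Irf1 at chr11:53769764-53770063 on the plus strand. Capitals mark the letters TTCNNNGAA, the palindromic core that STAT dimers bind, searched on both strands.
Socs3: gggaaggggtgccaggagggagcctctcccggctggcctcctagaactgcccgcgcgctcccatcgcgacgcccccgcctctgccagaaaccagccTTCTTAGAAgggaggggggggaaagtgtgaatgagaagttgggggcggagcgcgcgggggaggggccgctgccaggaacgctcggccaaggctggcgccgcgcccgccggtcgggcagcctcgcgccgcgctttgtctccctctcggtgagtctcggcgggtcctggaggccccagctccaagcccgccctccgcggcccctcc
Irf1: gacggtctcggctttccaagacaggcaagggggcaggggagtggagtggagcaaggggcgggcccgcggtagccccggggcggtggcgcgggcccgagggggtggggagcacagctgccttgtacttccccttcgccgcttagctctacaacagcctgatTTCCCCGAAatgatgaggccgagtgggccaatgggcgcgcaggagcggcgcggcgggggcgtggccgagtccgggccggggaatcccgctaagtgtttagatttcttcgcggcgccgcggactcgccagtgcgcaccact
The first capital lies 154 bases before the start in Socs3 and 90 bases before it in Irf1, in 1 of the 2 promoters RefSeq gives for Irf1. The letters occurred in 2726 of 32851 promoters of this length, or 8.3%. Counted per gene, with a match in any promoter of the gene, they occurred in 2582 of 27025 genes, or 9.55%, and in 6 of the 30 genes of the JAK-STAT list that had a promoter in the table, which were Bcl6, Cish, Ifnar1, Ifnar2, Irf1 and Socs3. A match describes the sequence and is not evidence of binding.

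Members made up a few percent of the fibroblasts in every library. The share was 2.59% (2.07% to 3.19%) in CON, 2.33% (1.93% to 2.77%) in UV and 3.23% (2.74% to 3.77%) in Rux, and the 3 intervals overlapped. A share of cells with a UMI moves with depth, so every fibroblast with at least 5000 UMIs was also thinned to that number, which left out 1322 shallower fibroblasts in CON, 1606 in UV and 892 in Rux. The thinned shares were 2.04%, 2.17% and 2.66%, against 3.82%, 2.76% and 3.63% for the same cells before thinning. The order of CON and UV was therefore opposite before and after thinning, and no order of the libraries is read from these shares.

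The libraries differed more in how many of the 5 genes a member had, which is a description, since the rule used these genes. The counts below were not thinned, and the part of depth in them was not tested. All 5 genes were detected in 14 members of CON, 60 of UV and 31 of Rux, which was 0.426% (0.233% to 0.714%), 1.16% (0.888% to 1.49%) and 0.650% (0.442% to 0.921%) of the fibroblasts. Members with 4 genes numbered 14, 31 and 53, and those with 3 genes, just inside the threshold, 57, 29 and 70. Just outside it were 109, 88 and 137 fibroblasts with 2 genes. As a description of the cells at the threshold, Coch was detected in 15.8%, 48.3% and 37.1% of the members with 3 genes in CON, UV and Rux, and in 15.6%, 36.4% and 44.5% of the fibroblasts with 2 genes. Apcdd1 was the gene most often detected on both sides, in 94.7%, 93.1% and 88.6% of the members with 3 genes and in 83.5%, 59.1% and 62.0% of the fibroblasts with 2 genes, except that Dkk2 was in 65.9% of the latter in UV.

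Detection was also counted in other cell classes, where free RNA, doublets and expression cannot be told apart. In immune cells, which should lack these genes, Coch was detected in 0.659%, 2.16% and 2.39% of cells and Apcdd1 in 2.64%, 0.866% and 1.84% at median depths of 5720, 6140 and 6363 UMIs. At least 3 of the 5 genes were detected in 0 of 455, 2 of 462 and 3 of 922 immune cells, and a count of 0 in CON allows up to 3 cells, or 0.659%. In endothelial cells the share was 1.18% (0.512% to 2.32%), 1.11% (0.507% to 2.09%) and 0.639% (0.0775% to 2.29%). In epithelial cells, with median depths of 22654, 24111.5 and 24445 UMIs, it was 1.17%, 1.92% and 0.816%, and Apcdd1 alone was detected in 52.3%, 37.6% and 31.0% of them. The share of members among fibroblasts lay above each of these values, but its interval overlapped the endothelial one in CON and UV. In UV its interval began at 1.93%, next to the epithelial share of 1.92%, so these were not clearly apart either.

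The members were not 1 kind of fibroblast. When all fibroblasts were clustered without the 5 rule genes, 309 of the 359 members, or 86.1%, fell into 2 of 17 clusters. Cluster 12 held 156 members among its 161 fibroblasts and was led by Coch, Kera, Gpm6a, Hs3st6 and Crabp1, with Fmod also among its first 10 genes. Cluster 8 held 153 members among 608 fibroblasts and was led by Grem1, F13a1, Igfbp2, Otulinl and Pappa, with Apcdd1 the only rule gene among the first 10. The other 50 members were spread over 10 clusters, with 22 in cluster 7, which was led by Ednrb, Adamts18 and Col11a1. The rule genes chose the members and were left out of the clustering, and the other leading genes could enter it. All of them are therefore descriptions.

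The 2 clusters took different shares of the members in each library. Members in cluster 12 numbered 22 in CON, 84 in UV and 50 in Rux, which was 0.670% (0.420% to 1.01%), 1.63% (1.30% to 2.01%) and 1.05% (0.779% to 1.38%) of the fibroblasts. Members in cluster 8 numbered 55, 11 and 87, or 1.68% (1.26% to 2.18%), 0.213% (0.106% to 0.381%) and 1.82% (1.46% to 2.24%). At this resolution most UV members lay in cluster 12, and most CON and Rux members in cluster 8. Within cluster 8 its leading gene Grem1 and the rule gene Dkk2 themselves differed between libraries, and its 608 fibroblasts were split 309, 60 and 239, so its counts are not read as numbers of 1 fixed cell type. At a finer clustering the cluster with most Grem1 held 66 members in place of 153, with 13 in CON, 6 in UV and 47 in Rux, so that most CON and Rux members no longer lay in it.

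**Figure D1:**
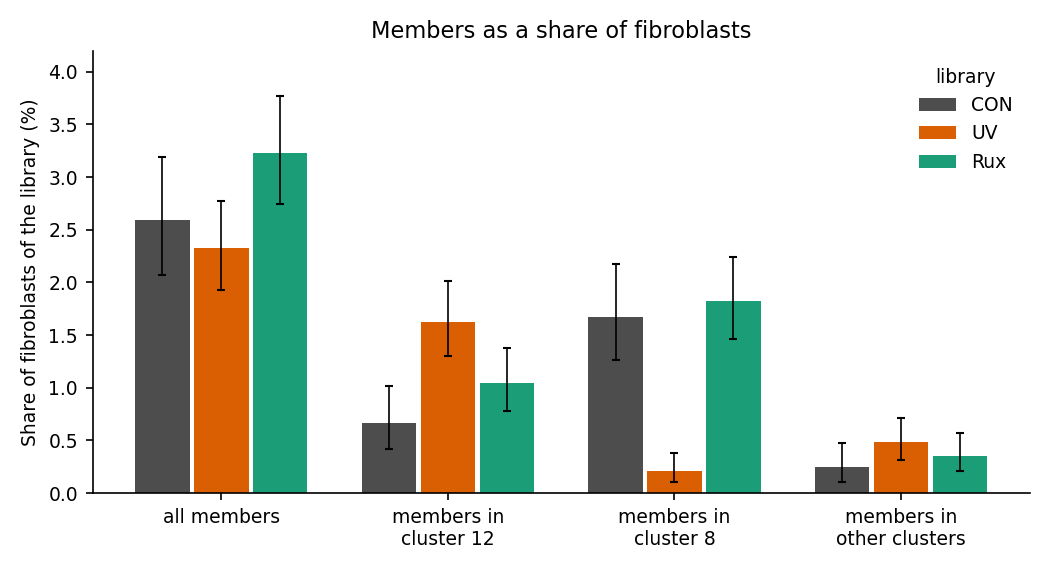
Members as a percentage of the fibroblasts of each library, for all members and for those in cluster 12, cluster 8 and the other clusters. Bars are the 3 libraries and error bars exact 95% intervals for counting error. All members lie between 2.33% and 3.23%, while cluster 12 is highest in UV at 1.63% and cluster 8 lowest in UV at 0.213%.

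The markers that name these cells fitted cluster 12 and only in part cluster 8. Among the 156 members in cluster 12, Coch was detected in 153, Apcdd1 in 144, Crabp1 in 140, Gldn in 139, Dkk2 in 135 and Fmod in 126, and 100 of them had all 5 rule genes. Among the 153 in cluster 8, Apcdd1 was detected in 150, Dkk2 in 112, Crabp1 in 111 and Gldn in 110, but Coch in 23 and Fmod in 4, and 1 of them had all 5. These detections describe what the rule and the clustering used. Dkk2 was detected in 38.2% of the cluster 8 members in CON, 90.9% in UV and 93.1% in Rux. Both groups had the fibroblast gene Pdgfra, at 190, 162 and 193 CPM in cluster 12 and 197, 185 and 216 CPM in cluster 8 in CON, UV and Rux. Cluster 12 members are therefore called by Coch and Fmod below, and cluster 8 members by Igfbp2 and Grem1. These names describe levels summed over a group and not each cell. Igfbp2 and Grem1 were both detected in 64 of all members, while cluster 8 held 153, so most of its members lacked at least 1. Of all members in CON, UV and Rux, Grem1 was detected in 42.4%, 3.33% and 22.1%, and Igfbp2 in 54.1%, 14.2% and 50%.

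The levels of Coch and Fmod, which were used by the rule or the clustering, are given as a description. Coch stood at 10739, 13676 and 13620 CPM in the Coch-Fmod members of CON, UV and Rux, and at 7.15, 14.8 and 130 CPM in the Igfbp2-Grem1 members, where 1 cell gave 76.3% of the Rux UMIs. Fmod stood at 2899, 2690 and 2844 CPM against 1.43, 7.40 and 1.34 CPM. In the other fibroblasts Coch had 1.95, 7.78 and 10.5 CPM and Fmod 18.0, 35.2 and 6.09 CPM.

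Crabp1, Gldn and Apcdd1 were present in both groups. Crabp1 had 2284, 2324 and 1275 CPM in the Coch-Fmod members and 292, 843 and 414 CPM in the Igfbp2-Grem1 members. Gldn had 987, 706 and 777 CPM against 210, 81.4 and 148 CPM, and Apcdd1 683, 663 and 743 CPM against 509, 481 and 330 CPM. Dkk2 differed between libraries in the Igfbp2-Grem1 members, with 70.1 CPM in CON, 503 in UV and 557 in Rux, and less so in the Coch-Fmod members, with 607, 711 and 945 CPM. The rule used these values, and they are given as descriptions.

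**Figure D2:**
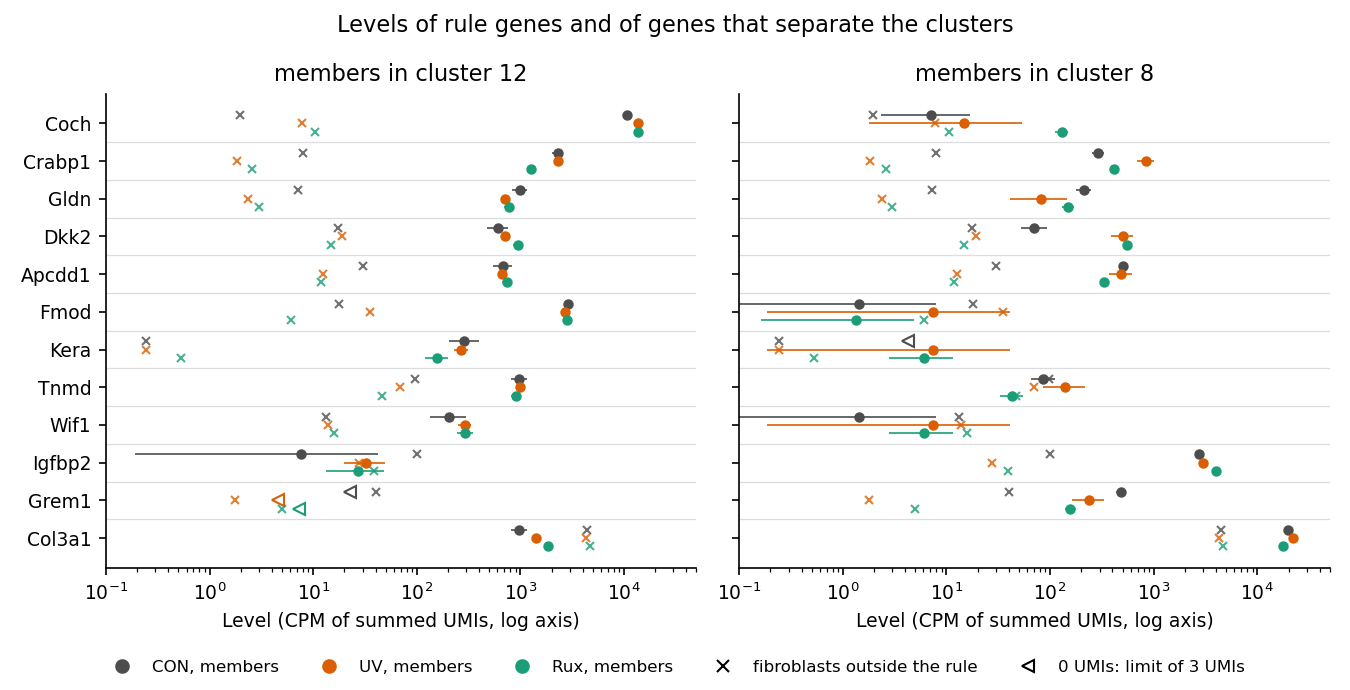
Levels in CPM on a log axis for the rule genes and for genes that separate the clusters, with members of cluster 12 on the left and of cluster 8 on the right. Dots are libraries with exact 95% Poisson intervals, crosses are the fibroblasts outside the rule and open triangles mark 0 UMIs at the limit of 3 UMIs. Coch and Fmod are at 2690 CPM or more on the left and at 130 CPM or less on the right, and Igfbp2 is at 2717 CPM or more on the right and at 32.2 CPM or less on the left.

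Outside the 5 rule genes, the groups of members are described next by genes that also entered the clustering, so these differences are descriptions. Kera, encoding the small proteoglycan keratocan, had 288, 267 and 156 CPM in CON, UV and Rux, against 0, 7.40 and 6.05 CPM in the Igfbp2-Grem1 members. Tnmd, encoding tenomodulin of tendons and ligaments, had 964, 985 and 902 CPM against 85.8, 141 and 43.0 CPM. Wif1, a secreted Wnt inhibitor, had 205, 290 and 293 CPM against 1.43, 7.40 and 6.05 CPM, and Trps1, a zinc-finger transcription factor, 2079, 2016 and 1165 CPM against 340, 303 and 407 CPM. Igfbp4, Sema3e and Trps1 were named after their values were seen, and Igfbp4 had 729, 705 and 745 CPM against 10.0, 7.40 and 26.9 CPM. In the Igfbp2-Grem1 members of UV, 7.40 CPM was 1 UMI, so Kera, Wif1 and Igfbp4 were at or near 0 there. Sema3e, encoding a guidance ligand, had 220, 208 and 188 CPM against 4.29 CPM in CON and 0 UMIs in UV and Rux, but it was higher still in the fibroblasts of cluster 9, at 826 CPM.

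The groups of members differed in the collagen genes that were part of the fibroblast rule, which are given as a description. Col1a1 had 3757, 5690 and 4894 CPM in the Coch-Fmod members and 27353, 22492 and 17960 CPM in the Igfbp2-Grem1 members, and Col3a1 964, 1405 and 1845 CPM against 19789, 22248 and 17841 CPM. The 5 fibroblast genes made up a median of 1.70%, 1.81% and 1.93% of a cell's UMIs in the Coch-Fmod members, 8.22%, 8.18% and 5.57% in the Igfbp2-Grem1 members, and 1.96%, 2.07% and 1.98% in the fibroblasts outside the rule, where the fibroblast rule required 1%. Dcn, encoding decorin, was nearer between the groups, at 7149, 6622 and 6455 CPM against 14682, 8420 and 9444 CPM. Under a threshold of 2% the share of members among fibroblasts was 3.97%, 1.92% and 4.62%.

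The genes of the Igfbp2-Grem1 members are descriptions in the same way, since Grem1, F13a1 and Igfbp2 led cluster 8. Igfbp2, which binds insulin-like growth factors, had 2717, 3011 and 3993 CPM in CON, UV and Rux, against 7.59, 32.2 and 26.9 CPM in the Coch-Fmod members. Grem1, encoding the BMP antagonist gremlin, had 482, 237 and 157 CPM against 0 UMIs in each library. F13a1, encoding a subunit of the transglutaminase factor XIII, had 329, 289 and 242 CPM against 0, 3.06 and 0 CPM. Sema3a, named after its values were seen, had 403, 681 and 658 CPM against 0, 1.53 and 44.0 CPM. Mmp3, encoding stromelysin, had 638, 355 and 255 CPM against 7.59, 15.3 and 12.2 CPM.

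Some genes were common to both groups. Cyp26b1, which degrades retinoic acid, had 736, 650 and 965 CPM in the Coch-Fmod members and 734, 666 and 478 CPM in the Igfbp2-Grem1 members, against 57.0, 24.4 and 63.0 CPM in the other fibroblasts. It was the most abundant of the 5 genes kept from the retinoid list of 23, of which 1 was higher and 2 lower in all 3 libraries, with a median log2 ratio of -0.40 against 0.12 over all genes. Rspo4, a secreted Wnt activator, had 167, 170 and 217 CPM and 37.2, 44.4 and 49.7 CPM, against 1.07, 0.189 and 0.409 CPM. Col7a1, the anchoring-fibril collagen, had 288, 199 and 283 CPM and 142, 222 and 204 CPM, against 13.3, 5.20 and 5.70 CPM. These genes were thus higher than in the other fibroblasts in both groups and in every library.

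Across all members, 172 of 3968 genes (4.33%) were at least 2-fold higher than in the other fibroblasts of the same library in all 3 libraries, and 194 (4.89%) at least 2-fold lower. Within single libraries 258 (6.5%), 480 (12.1%) and 367 (9.25%) were higher in CON, UV and Rux and 293 (7.38%), 356 (8.97%) and 329 (8.29%) lower. Ranked by the smallest ratio of the 3, the 20 highest were Coch, Crabp1, Kera, Rspo4, Cadps, Gldn, F13a1, Fmod, Igfbp2, Stc1, Adgrl3, Apcdd1, Daam2, Col7a1, Clstn2, Emid1, Tmem132c, Mmp16, Grem1 and Hdac9. Of those that the rule did not use, Cadps had 198, 33.5 and 50.9 CPM in the members and 3.07, 0.754 and 0.838 CPM in the others, and Daam2, of the Wnt planar-polarity branch, 72.7, 135 and 41.1 CPM against 5.17, 3.88 and 2.76 CPM. Adgrl3, an adhesion receptor, had 101, 523 and 162 CPM against 5.85, 3.96 and 3.19 CPM.

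The 10 lowest were Agt, Ggt5, Csmd1, Cxcl13, Gdf10, Gpr39, Inmt, C4b, Pde11a and Ebf2. C4b, a complement component, had 93.0, 181 and 130 CPM in the members and 724, 1243 and 1274 CPM in the other fibroblasts. Inmt, an amine methyltransferase, had 6.78, 92.7 and 34.1 CPM against 410, 649 and 668 CPM, and Cxcl13, the B cell chemokine, 0, 38.8 and 5.31 CPM against 43.1, 305 and 436 CPM. Of 19 genes kept from the inflammatory secretion list of 30, which holds mostly cytokines and chemokines, 0 were at least 2-fold higher in all 3 libraries and 15 lower, with a median log2 ratio of -2.07 against 0.12 over all genes. Its most abundant gene in the members, the monocyte chemokine Ccl2, had 399, 1124 and 746 CPM against 2257, 3163 and 3940 CPM. Cxcl1, a neutrophil chemokine, had 376, 1229 and 538 CPM against 4221, 3822 and 4515 CPM, and Il6 had 239, 303 and 80.0 CPM against 1173, 1144 and 495 CPM.

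Some collagen, Wnt and p53 genes were higher in the members. Of 16 genes kept from the list of other collagens, which leaves out Col1a1 and Col3a1 and whose most abundant gene was Col6a1, 6 were at least 2-fold higher in all 3 libraries and 1 lower, with a median log2 ratio of 1.06. Of 13 kept from the Wnt ligand and receptor list, 5 were higher and 1 lower, with a median of 1.09. The Wnt inhibitor list had no common direction, with 2 of 8 higher and 3 lower and a median of -0.43. Its median was -1.53 in CON, -0.43 in UV and 0.72 in Rux. Wnt5a, a ligand of the non-canonical branch, had 137, 99.7 and 110 CPM against 26.3, 19.8 and 14.3 CPM, and its receptor Ror2 104, 143 and 139 CPM against 33.7, 28.0 and 29.3 CPM. Of 11 kept from the p53 and senescence list, 3 were higher, Cdkn2a, Trp53inp1 and Zmat3, and 0 lower, with a median of 1.22. Cdkn2a, whose products are p16 and p19, had 226, 92.7 and 156 CPM against 38.9, 5.20 and 17.2 CPM. Cdkn1a, encoding the cell-cycle inhibitor p21, had 782, 773 and 775 CPM against 432, 208 and 200 CPM, less than 2-fold apart in CON. Among the members, Cdkn2a was higher in the Igfbp2-Grem1 group, at 286, 281 and 213 CPM, than in the Coch-Fmod group, at 83.5, 98.1 and 73.3 CPM. Members were deeper than other fibroblasts, and the part of depth in these ratios was not tested.

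Marker lists of follicle and tendon cells were compared with the other fibroblasts. Of 26 dermal papilla markers 7 were kept, and 3 were higher and 2 lower in all 3 libraries, with a median log2 ratio of 2.11 against 0.12 over all genes. The 3 were Rspo4, Wif1 and Trps1, of which Wif1 was also a leading gene of cluster 7, at 122 CPM. The papilla markers Sox2 and Corin did not pass the filter, with 0.969, 1.77 and 0.884 CPM and 7.75, 26.5 and 3.98 CPM in all members. In the Coch-Fmod members Sox2 had 0, 0 and 4.89 CPM and Corin 0, 1.53 and 0 CPM, and in the Igfbp2-Grem1 members both had 0 UMIs in each library. Of 8 tendon-like markers 5 were kept, and 3 were higher and 0 lower, which were Tnmd, Mkx and Kera, with a median of 2.21. Scx, the transcription factor that defines tendon cells, had 1.94, 12.4 and 19.9 CPM. Of 12 dermal sheath markers 8 were kept, and 2 were higher and 0 lower in all 3 libraries, with a median of 1.44, while 3 were higher in CON, 8 in UV and 5 in Rux. Of 11 papillary markers kept, 5 were higher and 0 lower, with a median log2 ratio of 0.94, whereas the medians were -1.05 for 8 reticular, -1.37 for 9 fascia and -0.80 for 6 preadipocyte markers, of which 1, 0 and 0 were higher and 3, 4 and 2 lower. By summed level the lists differed between the groups of members: dermal papilla markers had 2816, 2753 and 2099 CPM in the Coch-Fmod members of CON, UV and Rux and 748, 599 and 901 CPM in the Igfbp2-Grem1 members, and tendon-like markers 2117, 2117 and 1532 CPM against 308, 1310 and 427 CPM. Tnc gave 991 CPM of the 1310 CPM in UV, and 1 cell gave 65.7% of its UMIs there. Papillary markers had 1116, 1468 and 1805 CPM against 2047, 2264 and 2403 CPM, and reticular markers 197, 538 and 594 CPM against 1630, 1857 and 2760 CPM. The members are given no cell type name beyond their genes.

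Markers of other cells were summed over the members, and their part in the results was not tested. The 6 keratinocyte markers summed to 670, 223 and 164 CPM in the members of CON, UV and Rux, against 407, 180 and 183 CPM in the other fibroblasts, and the most abundant, Krt5, to 218, 35.3 and 27.4 CPM. Of the Krt5 UMIs of CON, 70.7% came from 1 cell. The 6 muscle markers summed to 360, 22.9 and 214 CPM, against 63.9, 11.6 and 10.2 CPM in the other fibroblasts, and to 37.9, 12.3 and 4.89 CPM in cluster 12 and 20.02, 7.40 and 7.39 CPM in cluster 8. Myod1 and Pax7 were at 0 UMIs. The most abundant, Acta1, had 146, 12.4 and 87.6 CPM in all members, and 1 cell gave 96.0% of its UMIs of CON. Keratinocyte and muscle markers gave over 1% of the UMIs in 1 member of CON, 0 of UV and 2 of Rux. Endothelial markers summed to between 10.6 and 17.4 CPM, immune markers to 19.4, 18.5 and 22.1 CPM, Schwann cell markers to 19.4, 41.5 and 9.73 CPM, melanocyte markers to 48.4, 82.1 and 27.9 CPM, erythrocyte markers to 1.94, 37.1 and 46.0 CPM and adipocyte markers to 4.84, 1.77 and 5.31 CPM, with Adipoq at 0 UMIs. High doublet scores were given to 4 members of CON, 16 of UV and 10 of Rux, or 4.71%, 13.3% and 6.49%, against 2.69%, 6.19% and 6.78% of the other fibroblasts.

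Other fibroblast sets picked by genes held members in unequal numbers, beside 359 members among all 13214 fibroblasts. Of 204 fibroblasts with Ednrb, Lrrc15 and Col11a1 each detected, 17 were members, of 554 with Cthrc1, Mdk and Myo16, 10, and of 1595 with Dpp4, Smpd3 and Sema3e, 8. Of 122 fibroblasts with Igfbp2 and Grem1, a set added after the values were seen, 64 were members, and the 122 were split 76 in CON, 5 in UV and 41 in Rux.

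UV was compared with CON to ask what chronic irradiation did in these cells. Summed over all members, 225 of 3695 genes (6.09%) were at least 2-fold higher in UV and 134 (3.63%) at least 2-fold lower. The highest were Prg4, Hmox1, C3, Tnn, Sfrp2, Kcnab1, Plac8, Lbp, Col24a1 and Ptx3. Hmox1, the haem oxygenase induced by oxidants, stood at 17.4 CPM in CON against 237 CPM in UV, which gave a log2 ratio of 3.73 (3.08 to 4.54), against 2.92 in the other fibroblasts. C3, the central complement component, had 34.9 and 458 CPM, a log2 ratio of 3.70 (3.23 to 4.24), against 1.48 in the other fibroblasts. Of the 519 C3 UMIs in the UV members, 114 lay in the members of cluster 12 and 2 in those of cluster 8, so most came from the 25 members in other clusters. The ratio of C3 was 2.43 without the cells of high doublet score, 2.36 with equal weight per cell and 1.59 with 4 or more of the 5 rule genes. That of Ptx3 was 3.16 with all members and 0.39 without the cells of high doublet score. Prg4, encoding lubricin, had 2.91 and 143 CPM, and 1 cell gave 42.6% of its UMIs in UV. Without the cells of high doublet score the log2 ratio of Prg4 was 4.09. The lowest were Nt5e, Aldh3a1, Grem1, Acta1, Chmp4c, Krt15, Cdh4, Ly6d, Stmn1 and Lsamp. Krt15 and Ly6d are keratinocyte genes and Acta1 a muscle gene, and in CON the cell with most UMIs of the gene gave 89.9%, 78.2% and 96.0% of them. Leaving out the members with over 1% keratinocyte or muscle UMIs, 1 of them in CON, took Krt15 from -3.49 to -0.26 and Ly6d from -3.28 to -1.14, and equal weight per cell took Acta1 from -3.52 to -0.72. With 4 or more of the 5 rule genes Stmn1 was at -0.74 in place of -3.05. Grem1 stood at 383 CPM in CON against 28.2 CPM in UV, and Cdh4 384 and 34.4 CPM. Grem1, Cdh4 and Aldh3a1 were leading genes of cluster 8, whose part of the members was 64.7% in CON and 9.17% in UV. These genes were also lower in UV in the other fibroblasts, with log2 ratios of -4.50, -2.30 and -2.16, but cluster 8 also made up less of the fibroblasts as a whole in UV, with 309 of 3283 in CON and 60 of 5160 in UV, members included. The part of the mix of clusters in the pooled contrast was not tested, and the values within each cluster are given next.

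In the Coch-Fmod members of UV and CON, the genes by which these cells were chosen or clustered had log2 ratios, given as a description, of 0.35 (0.27 to 0.43) for Coch, -0.11 (-0.27 to 0.06) for Fmod, -0.13 (-0.63 to 0.43) for Kera and 0.03 (-0.25 to 0.32) for Tnmd. Of 1536 genes, 99 (6.45%) were at least 2-fold higher in UV and 20 (1.3%) lower, and CON rested on 22 cells and 131765 UMIs. Hmox1 stood at 30.4 CPM in CON against 202 CPM in UV, with a log2 ratio of 2.57 (1.35 to 4.63). Fgfr1, a receptor of fibroblast growth factors, had 121 and 555 CPM, a log2 ratio of 2.15 (1.47 to 3.01), and was detected in 83.3% of the UV cells. Thbs1, encoding thrombospondin 1, had 22.8 and 366 CPM, a log2 ratio of 3.79 (2.44 to 6.30). Hes1, a target of Notch, was lower, with 2254 and 855 CPM, as were the stress gene Gadd45b, with 2960 and 1183 CPM, and Igf1, with 577 and 211 CPM.

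Chemokines stood out in the Coch-Fmod members of UV, but single cells gave a large part of their UMIs. Of 6 genes kept from the inflammatory secretion list, 5 were at least 2-fold higher and 0 lower. Cxcl1 stood at 114 CPM in CON against 737 in UV, Cxcl2 7.59 and 285, Ccl7 30.4 and 256, and Il6 30.4 and 167. In UV the cell with most UMIs of the gene gave 81.2% of the Cxcl2 UMIs, 45.5% of those of Ccl7, 38.7% of those of Cxcl1 and 31.2% of those of Il6. Without the cells of high doublet score, the log2 ratio of Cxcl1 was 0.68, of Cxcl2 1.87, of Il6 0.91 and of Ccl7 -0.63, so Ccl7 changed direction, while that of Hmox1 was 3.12 and that of Thbs1 3.15.

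Within the Igfbp2-Grem1 members, Col12a1 and Postn were higher in UV than in CON. UV rested on 11 cells and 135158 UMIs, so each ratio of a single gene is also given for all fibroblasts of cluster 8. The list counts and medians are for the members only. Of 1443 genes, 82 (5.68%) were at least 2-fold higher and 121 (8.39%) lower, and 42 and 189 under median-of-ratios scaling. Col12a1, encoding a collagen that binds to the surface of fibrils, stood at 17.2 CPM in CON against 1317 in UV, with a log2 ratio of 6.21 (5.42 to 7.24), against 2.93 for all fibroblasts of the cluster, and 1 cell gave 38.8% of its UMIs in UV. Postn, encoding the matricellular protein periostin, had 109 and 1776 CPM, a log2 ratio of 4.02 (3.65 to 4.42), against 3.10. Sfrp2, a secreted Wnt modulator, had 11.4 and 244 CPM, a log2 ratio of 4.35 (3.27 to 5.74), against 4.18, but it rested on 8 UMIs in CON and 33 in UV and did not pass the filter on low values. Of 11 genes kept from the elastic fibre list 6 were higher and 0 lower, with a median log2 ratio of 1.02 against -0.02 over all genes, among them Eln with 300 and 725 CPM and Mfap4 with 797 and 1857 CPM. Of 10 genes of the collagen list 3 were higher and 0 lower, of 9 proteoglycans 3 were higher and 1 lower, and of 10 basement membrane genes 0 were higher and 1 lower. Of 23 immediate-early genes 0 were higher and 13 lower, with a median of -1.15, and Fos had 4002 and 1191 CPM and Junb 2105 and 777 CPM, a log2 ratio of -1.43 against -0.70 for all fibroblasts of the cluster. Grem1 had 482 and 237 CPM, a log2 ratio of -1.01 (-1.60 to -0.50), against -2.41 for all fibroblasts of the cluster, and Igfbp2 2717 and 3011 CPM.

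Rux was compared with UV to ask what the inhibitor did in irradiated skin, and this contrast shares the UV library with the first. Over all members 116 of 3738 genes (3.1%) were at least 2-fold higher in Rux and 150 (4.01%) lower. The highest were Aldh3a1, Akap6, C1qtnf3, Ctla2a, Eln, Myo16, Saa3, Ccn5, Pappa and Ccl8, and the lowest Opcml, C3, Cpne8, Ubash3b, Ptx3, Gfra1, Sox5, Myoc, Hmox1 and Sparcl1. Eln, encoding elastin, had 229 CPM in UV and 2386 CPM in Rux, a log2 ratio of 3.38 (3.20 to 3.57), against 0.31 in the other fibroblasts. Cluster 8 held 9.17% of the members in UV and 56.5% in Rux, and within the clusters the ratio of Eln was 2.22 (1.94 to 2.53) in cluster 8 and 1.02 (0.68 to 1.37) in cluster 12. C1qtnf3 had 78.5 and 852 CPM, a log2 ratio of 3.43 (3.13 to 3.76), against 0.20, and 4.24 with 4 or more of the 5 rule genes. Of the Saa3 UMIs of Rux, 84.5% came from 1 cell. Its ratio was 3.22, but 4.49 without the cells of high doublet score and 1.97 for members chosen after thinning. Without the cells of high doublet score the ratio of Ptx3 was -0.49 in place of -2.55. Hmox1 had 237 and 47.3 CPM, a log2 ratio of -2.32 (-2.66 to -2.00), against -1.92 in the other fibroblasts, and -1.62 with equal weight per cell.

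Socs3, Irf1 and Stat3 were lower in Rux than in UV in both groups of members. The Igfbp2-Grem1 members of UV were 11 cells, and the part of tissue handling in these levels was not tested. Socs3 had 933 CPM in CON, 633 in UV and 122 in Rux in the Coch-Fmod members, and 552, 340 and 136 CPM in the Igfbp2-Grem1 members. Rux was thus the lowest library in both, with log2 ratios of Rux over UV of -2.36 (-2.83 to -1.95) and -1.33 (-1.79 to -0.82). In the other fibroblasts Socs3 had 931, 454 and 135 CPM. Irf1, whose promoter is shown above with that of Socs3, had 1632, 1019 and 647 CPM in the Coch-Fmod members and 539, 377 and 245 CPM in the Igfbp2-Grem1 members, with log2 ratios of Rux over UV of -0.65 (-0.87 to -0.45) and -0.63 (-1.05 to -0.17).

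Stat3, which transmits signals of the IL-6 family, had 729, 1022 and 474 CPM in the Coch-Fmod members and 562, 518 and 321 CPM in the Igfbp2-Grem1 members. Its log2 ratio of Rux over UV was -1.11 (-1.35 to -0.88) in the first group and -0.70 (-1.05 to -0.31) in the second. Jak1 had 600, 562 and 274 CPM in the first and 588, 444 and 444 CPM in the second, so that it was lower in Rux than in UV in the first group only, and the difference between the groups was not tested. Of 10 genes kept from the JAK-STAT list in the Coch-Fmod members, 3 were at least 2-fold lower in Rux than in UV and 0 higher, with a median log2 ratio of -0.62 against -0.03 over all 2130 genes, of which 68 (3.19%) were lower and 21 (0.986%) higher. Of 14 kept in the Igfbp2-Grem1 members, 2 were lower and 2 higher, with a median of -0.10 against 0.03 over 2948 genes, of which 75 (2.54%) were lower and 171 (5.8%) higher. Summing all fibroblasts of cluster 8 gave 43 lower and 77 higher, and median-of-ratios scaling gave 46 lower.

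**Figure D3:**
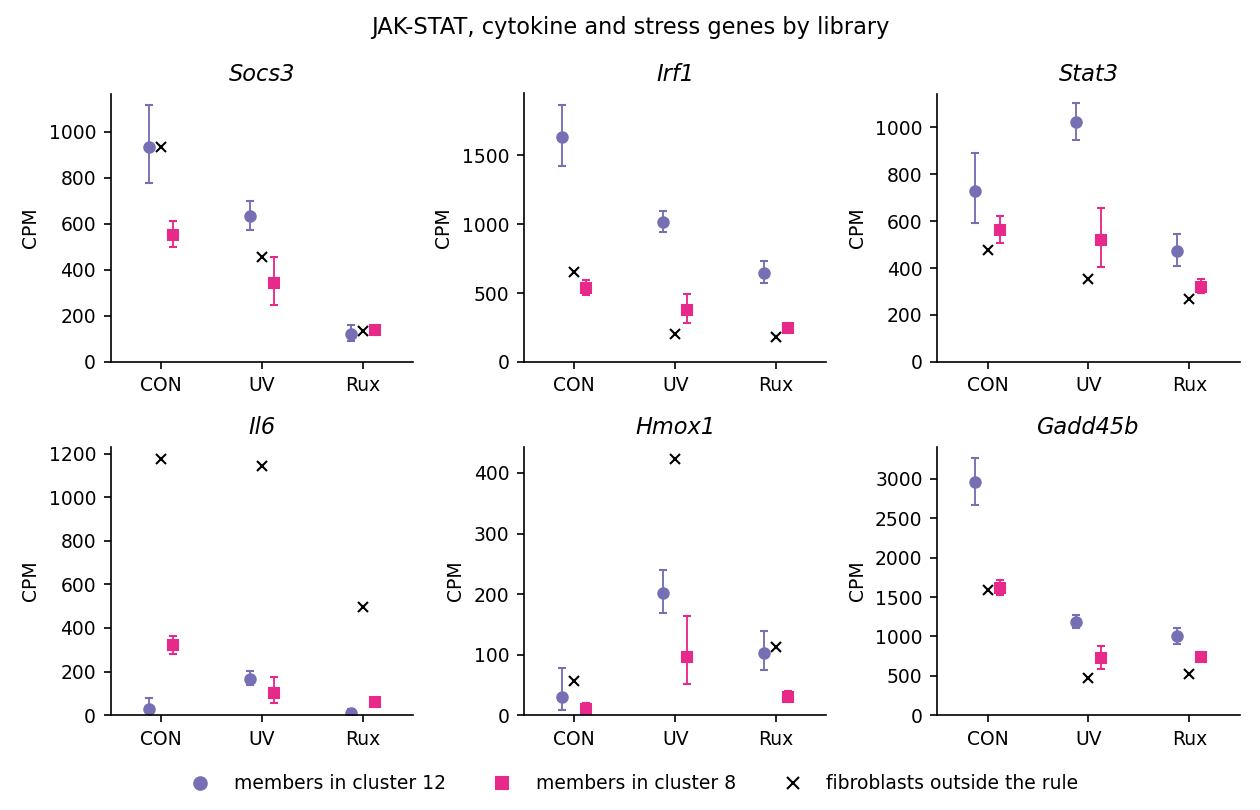
Levels in CPM of Socs3, Irf1, Stat3, Il6, Hmox1 and Gadd45b by library, for members of cluster 12 (circles), members of cluster 8 (squares) and fibroblasts outside the rule (crosses), with exact 95% Poisson intervals for the members. Socs3 is lowest in Rux in all 3 sets of cells, at 122, 136 and 135 CPM, and Il6 is higher outside the rule than in the members in every library.

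Of 6 genes kept from the inflammatory secretion list in the Coch-Fmod members, 0 were at least 2-fold higher in Rux than in UV and 5 lower, with a median log2 ratio of -1.08. The Igfbp2-Grem1 members went the other way, with 4 of 11 higher and 0 lower and a median of 0.57, and over all members 3 of 12 were higher and 3 lower. The difference between the groups was not tested. The values of single genes that follow are for the Coch-Fmod members. The log2 ratio of Cxcl1 was -1.09, but -0.09 with equal weight per cell and 0.30 without the cells of high doublet score. Il6 had 167 CPM in UV and 12.2 CPM in Rux, a log2 ratio of -3.64 (-5.42 to -2.51), and -2.96 without the cells of high doublet score and -2.94 with equal weight per cell. C3 had 175 and 26.9 CPM, a log2 ratio of -2.64 (-3.74 to -1.81), and -1.24 without those cells, and 1 cell gave 55.3% of its UMIs in UV. Has1, a hyaluronan synthase, had 415 and 90.4 CPM, and Ubash3b, a regulator of tyrosine kinase signalling, 214 and 41.5 CPM. Higher in Rux were Ccn2, a matricellular gene, with 59.8 and 293 CPM, a log2 ratio of 2.28 (1.76 to 2.85), Hmcn1, encoding hemicentin 1, with 36.8 and 203 CPM, and Col12a1, with 59.8 and 193 CPM. Coch, at a log2 ratio of -0.01 (-0.05 to 0.04), and Fmod, at 0.08 (-0.03 to 0.19), are given as descriptions, since these genes chose or clustered the cells, as is Crabp1, at -0.87 (-1.01 to -0.72).

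In the Igfbp2-Grem1 members the genes with the highest ratio of Rux over UV were Coch, Mitf, Rspry1 and Aldh3a1, each resting on 2 or 3 UMIs in UV. Eln, with more UMIs, had 725 and 3391 CPM, a log2 ratio of 2.22 (1.94 to 2.53), against 1.81 for all fibroblasts of cluster 8. Aldh3a1, an aldehyde dehydrogenase, had 22.2 and 142 CPM, a log2 ratio of 2.46 (1.11 to 4.97), against 2.82. Of the lowest genes, Depdc5, Cdh13, Tnc and Iigp1 had UMIs in 4, 6, 5 and 5 of the 11 cells of UV, where the cell with most UMIs of the gene gave 96.5%, 70.0%, 65.7% and 69.0%. Grem1 had a log2 ratio of -0.61 (-1.13 to -0.01) in the members and 1.03 over all fibroblasts of the cluster, so its direction depended on which cells were summed.

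Rux was compared with CON to ask how irradiated, treated skin stood against skin that was not irradiated, and this contrast shares a library with each of the others. Over all members 183 of 3592 genes (5.09%) were at least 2-fold higher in Rux and 120 (3.34%) lower. The highest were Col8a1, Mgp, Sfrp2, Serpine2, Col12a1, Eln, Postn, Ccn2, Csgalnact1 and Ccn5. Col12a1 had 50.4 CPM in CON and 733 CPM in Rux, a log2 ratio of 3.85 (3.46 to 4.29), against -0.23 in the other fibroblasts. Eln had 242 and 2386 CPM, a log2 ratio of 3.30 (3.12 to 3.49), against 0.29, and Postn 247 and 2373 CPM, a log2 ratio of 3.26 (3.08 to 3.45), against 2.33. With equal weight per cell the ratio of Postn was 2.57, and with 4 or more of the 5 rule genes it was 1.71, while that of Col12a1 was 5.59 for members chosen after thinning. Col8a1 had 4.84 and 207 CPM, a log2 ratio of 5.28 (4.19 to 7.05), against -1.85, and 7.66 for members chosen after thinning. Of the Mgp UMIs of Rux, 58.5% came from 1 cell. The lowest were Krt15, Gbp5, Adamts4, Rnf122, Ly6d, Krt5, Ccl19, Stc1, Tex14 and Opcml, and in CON the cell with most UMIs of the gene gave 89.9% of the Krt15, 70.7% of the Krt5 and 78.2% of the Ly6d UMIs. Without the members of over 1% keratinocyte or muscle UMIs the log2 ratios were -0.65 for Krt15, -1.25 for Krt5 and -0.98 for Ly6d, in place of -3.83, -2.98 and -3.12. Adamts4, an aggrecanase, had 342 and 27.0 CPM, a log2 ratio of -3.65 (-4.08 to -3.27), against -3.11. Ccl19, which has near-identical copies in this genome, so that its counts are uncertain, had 543 and 75.2 CPM.

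In the Igfbp2-Grem1 members, whose CON and Rux values rested on 55 and 87 cells, Postn, Eln, Col12a1 and Sfrp2 were higher in Rux than in CON. Of 3412 genes, 260 (7.62%) were at least 2-fold higher in Rux and 150 (4.4%) lower. Postn had 109 CPM in CON, 1776 in UV and 2783 in Rux, and Eln 300, 725 and 3391 CPM, so CON was lowest and Rux highest for both. Their log2 ratios of Rux over CON were 4.67 (4.35 to 5.03) and 3.49 (3.30 to 3.70), against 4.29 and 3.26 for all fibroblasts of cluster 8. Col12a1 had 17.2, 1317 and 938 CPM, a log2 ratio of 5.71 (4.96 to 6.73), against 3.49 for all fibroblasts of the cluster, and was detected in 78.2% of the Rux cells. Sfrp2, with 11.4, 244 and 315 CPM, was likewise high in UV and Rux. Of 14 genes kept from the elastic fibre list 6 were at least 2-fold higher and 0 lower, with a median log2 ratio of 0.59 against 0.08 over all genes. Of 13 matricellular glycoproteins 6 were higher and 0 lower, with a median of 0.98, and of 13 proteoglycans 6 were higher and 1 lower, with a median of 0.72. Of 12 genes of the collagen list 2 were higher and 1 lower, with a median of 0.49, and of 12 basement membrane genes 1 was higher and 0 lower, with a median of -0.13.

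Mmp3, Adamts4 and Il6 were lower in Rux than in CON in the Igfbp2-Grem1 members. In the inflammatory secretion list and the list of proteases and inhibitors, however, more genes were at least 2-fold higher than lower. Of 14 genes kept from the inflammatory secretion list 7 were at least 2-fold higher and 3 lower, with a median log2 ratio of 0.92, and of 20 proteases and inhibitors 5 were higher and 2 lower, with a median of 0.20. Mmp3 had 638, 355 and 255 CPM, a log2 ratio of Rux over CON of -1.32 (-1.52 to -1.12), and Adamts4 386, 163 and 21.5 CPM, a ratio of -4.15 (-4.74 to -3.63), against -3.06 for all fibroblasts of cluster 8. Il6 had 320, 104 and 59.2 CPM, a ratio of -2.43 (-2.81 to -2.08). Socs3 and Irf1 had ratios of -2.01 (-2.27 to -1.77) and -1.14 (-1.35 to -0.92). Of 15 genes kept from the JAK-STAT list, 2 were at least 2-fold lower and 0 higher.

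**Figure D4:**
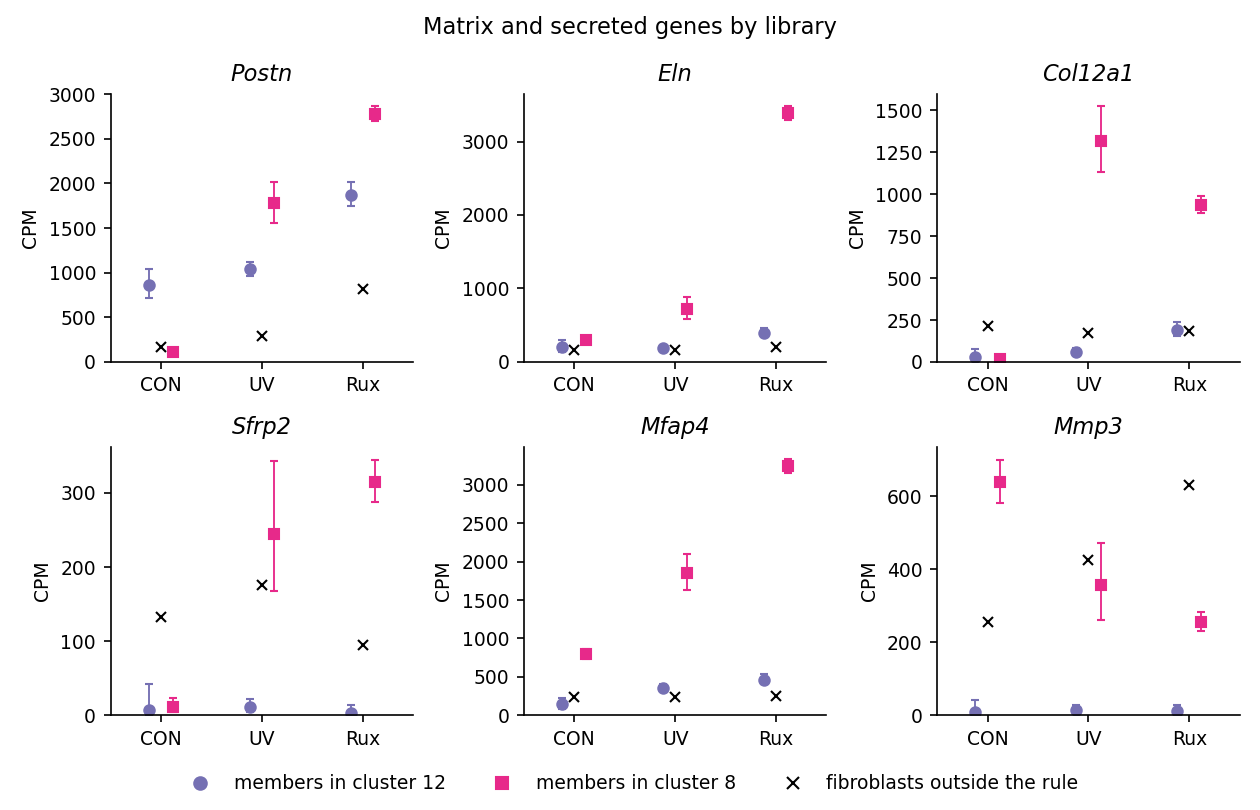
Levels in CPM of Postn, Eln, Col12a1, Sfrp2, Mfap4 and Mmp3 by library, for members of cluster 12 (circles), members of cluster 8 (squares) and fibroblasts outside the rule (crosses), with exact 95% Poisson intervals for the members. In cluster 8, Postn, Eln, Sfrp2 and Mfap4 are lowest in CON and highest in Rux, and Mmp3 is highest in CON at 638 CPM and lowest in Rux at 255 CPM.

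In the Coch-Fmod members Rux was compared with CON on 50 and 22 cells. Of 920 genes, 64 (6.96%) were at least 2-fold higher in Rux and 40 (4.35%) lower. Eln had 205, 196 and 398 CPM in CON, UV and Rux, and Postn 865, 1039 and 1876 CPM, a log2 ratio of Rux over CON of 0.94 (0.36 to 1.60) and 1.11 (0.83 to 1.41). Of 6 genes kept from the elastic fibre list 2 were higher and 0 lower, with a median of 0.72, of 9 genes of the collagen list 1 was higher and 0 lower, with a median of 0.47, and of 6 basement membrane genes 1 was higher and 0 lower, with a median of 0.67. How these lists differed between the groups of members was not tested. Ccn2 had 37.9, 59.8 and 293 CPM, a ratio of 2.82, and Fgfr1 121, 555 and 730 CPM, a ratio of 2.55 (1.87 to 3.41). Of 6 genes kept from the JAK-STAT list 4 were at least 2-fold lower and 0 higher, with a median of -1.08 against 0.06 over all genes, and Socs3 had a ratio of -2.93 (-3.44 to -2.45). Of 23 immediate-early genes 10 were lower and 0 higher, with a median of -0.58, among them Zfp36, an mRNA-decay factor, with 3043, 1837 and 877 CPM, and Junb, with 4781, 2574 and 1605 CPM. Gadd45g had 1457, 758 and 217 CPM, and the metallothionein Mt1 4167, 1852 and 1334 CPM, so that CON was the highest library for each. Immediate-early genes can respond to tissue dissociation, and the part of handling in these values was not tested.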

How the data were processed

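The deposited values were raw UMI counts per gene and cell in 1 filtered matrix per library. Per the labels, the authors made them with Cell Ranger 6.1.2 against mm10, whereas the file headers name Cell Ranger 7.0.0, and the difference was not resolved. The members and the gene lists were chosen with earlier results of these data known, so neither is independent of them.

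UMIs were summed over the cells of a library and compared as log2 ratios with 0.5 UMI added to each sum. Intervals were exact (Poisson, binomial or conditional binomial, 95%) and cover counting error only. Genes entered a contrast if their level averaged 50 CPM or more and if both libraries together held 100 UMIs or more, and they were counted as higher or lower from 2-fold. No p-value was computed, since each condition was 1 library. Named genes were the rule genes, the 20 highest and 10 lowest genes against other fibroblasts, the 10 highest and 10 lowest of each contrast, and, for a list, its most abundant gene and up to 4 with the largest ratio. Genes named outside this rule were chosen after their values were seen.

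Fibroblasts were clustered without the 5 rule genes (scanpy 1.11.5, leidenalg 0.10.2, 2000 variable genes, 30 components, 15 neighbours, resolution 0.5). Scrublet scores, at 0.8% expected doublets per 1000 cells, marked possible doublets, which stayed in the main values and were removed in an alternative. Ratios were tested on simulated data with 200 genes changed 2-fold, and the right sign was found for at least 98.5% of them in each comparison. Intervals excluded 0 in the right direction for 67% of these genes in the cluster 8 contrast of Rux with UV, and for 90.5% or more in each other contrast. The simulated counts held Poisson counting error only, with no differences between cells or libraries. These figures therefore do not cover genes whose UMIs came mostly from a single cell. Scripts ran in Python 3.11.15 (pandas 2.3.3, scipy 1.17.1, numpy 2.4.6).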

Additional observations from a re-analysis of the deposited data

Results flagged for a closer look

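Some genes had log2 ratios of opposite sign in 2 sets of cells under the same contrast, and these differences were not tested. Between the members and the other fibroblasts, Col8a1 had a log2 ratio of UV over CON of 3.30 against -1.35 and of Rux over CON of 5.28 against -1.85. The members held 5 Col8a1 UMIs in CON and 59 in UV, too few to pass the filter on low values for UV over CON. Tnn, encoding tenascin N, had a ratio of UV over CON of 3.63 in the members against -1.03 in the others, where it did not pass the filter. Mmp3 had a ratio of Rux over CON of -1.26 in the members against 1.30 in the others.

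Between the Coch-Fmod members of cluster 12 and the Igfbp2-Grem1 members of cluster 8, Igf1 had a ratio of UV over CON of -1.45 against 1.49 and of Rux over CON of -2.00 against 1.20. For UV over CON, Il6 had 2.30 against -1.58 and Procr 2.71 against -2.55. For Rux over UV, C3 had -2.64 against 2.23, Cdh13 1.40 against -2.51, Fos -1.06 against 1.05 and Myoc -3.19 against 3.02. Procr and Cdh13 did not pass the filter in cluster 12, where Procr had 1 UMI in CON and 48 in UV, and Cdh13 27 in UV and 45 in Rux. Myoc passed in neither, with 36 and 2 UMIs in UV and Rux in cluster 12 and 0 and 44 in cluster 8, so that its last ratio is a fitted value and no bound. C3 in cluster 8 rested on 2 UMIs in UV. The cluster 8 members of UV were 11 cells, of which 1 gave 70.0% of the Cdh13 UMIs. In the cluster 12 members of UV, 1 cell gave 31.2% of the Il6 UMIs and 55.3% of those of C3.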

How the results depend on the processing

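Of 149 alternative values of counts and shares, 114 stayed close to the main value and 35 moved. The share of fibroblasts that were members was 2.04% in CON and 2.66% in Rux after thinning. It was 3.97%, 1.92% and 4.62% in CON, UV and Rux with fibroblast genes at 2% or more of UMIs, 5.91%, 4.03% and 6.099% with 2 or more of the 5 genes, and 0.853%, 1.76% and 1.76% with 4 or more. With a minimum of 10 UMIs and none on CPM, genes at least 2-fold higher and lower in the members were 1126 and 731 for UV over CON, 588 and 1066 for Rux over UV and 863 and 1000 for Rux over CON. With a mean of at least 100 CPM they were 107 and 74, 66 and 68, and 110 and 62. With 4 or more of the 5 genes, 33 were lower for UV over CON and 68 for Rux over CON, and with members chosen after thinning 290 were higher for Rux over CON.

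The next alternatives were chosen after seeing the data. In cluster 8, median-of-ratios scaling gave 42 higher and 189 lower genes for UV over CON and 46 lower for Rux over UV, and summing all fibroblasts of the cluster gave 77 higher and 43 lower for Rux over UV. Without cells of high doublet score in cluster 12, the log2 ratio of Ccl7 for UV over CON was -0.63, and those of Thbs1 and Cxcl1 for Rux over UV were 0.17 and 0.30. For Rux over UV in cluster 8, Grem1 had 0.0018 with equal weight per cell and 1.03 over all fibroblasts of the cluster, where Apcdd1 had 0.47 and Col12a1 0.56. These 7 values reversed the main direction, and the causes were not tested. At clustering resolution 1.0, which was planned, the cluster with most Grem1 held 66 members, 13 in CON, 6 in UV and 47 in Rux.

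Of 1032 alternative log2 ratios of named genes between conditions, 851 stayed close, 174 moved and 7 counted as turned. Of 150 such ratios of members over other fibroblasts, 122 stayed close and 28 moved. List medians stayed close in 368 of 404 values and moved in 36, and 0 values of either kind counted as turned. A median could count as turned only if its main value was past 2-fold. For a ratio of members over other fibroblasts all 3 libraries had to change sign. A ratio between conditions could count only if its main interval excluded 0. Other changes of sign are therefore not in these counts. No paired analysis was possible because each condition had 1 library. The Coch-Fmod members of CON, with 131765 UMIs, and the Igfbp2-Grem1 members of UV, with 135158, had the fewest counts, which limits what their contrasts can show.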
